A study of Homo sapiens with 14 samples.

Results

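The response of A172 cells to knockdown of the long noncoding RNA LINC00152 was described from 6 of the 14 expression arrays of the series. These 6 arrays were chosen by their labels. They hold the A172 cultures of sets 1 to 3, with a control array and a knockdown array in each set. A172 is an established line of human glioblastoma, a malignant brain tumour of glial character. Control cultures received a negative control siRNA without a target RNA, and knockdown cultures received siLINC00152 #1, which is directed at the first exon of LINC00152. In both groups the siRNA was used at 20 pmol per ml and brought into the cells by electroporation. RNA was taken 40 h later according to the labels, whereas the text of the study names a later time. The series describes the sets as independent experiments, with 3 cultures in each group. The p-values measure how far the differences between knockdown and control within a set varied from set to set. The spread between sets that both arrays of a set share does not enter them. The other 8 arrays hold U87 glioblastoma cells that received the same siRNAs, with 4 arrays in each group. They served the estimate of the spread and the question where the A172 response differed from that of U87.

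LINC00152, named CYTOR in current gene tables, is a spliced RNA without a known protein product and is found at raised levels in many tumours, glioblastoma among them. A nearly identical copy lies elsewhere on the same chromosome and is the host gene of the microRNA MIR4435, named MIR4435-2HG. An siRNA guides a protein complex to a matching RNA, which is then cut, so the level of the matching RNA falls first and the levels of other genes can follow.

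Apart from control spots, 58717 spots with 50599 probes were read on each array. The values given here are log2 signals of the scanner after background subtraction, relative to the 75th percentile of the same array. This percentile, a measure of brightness, was 284, 131 and 186 on control arrays 1, 2 and 3 and 207, 148 and 191 on knockdown arrays 1, 2 and 3. The share of spots well above background was 69.0%, 57.6% and 64.4% on the control arrays and 63.6%, 57.3% and 64.6% on the knockdown arrays. Set 2 was thus the dimmest in both groups, and no spot was saturated. The control and the knockdown array of a set lay on the same slide, so set and slide cannot be told apart, and the knockdown was compared within sets. A probe was tested if it was well above background on all 3 arrays of a group, which held for 28338 probes. Probes are referred to as called where the false discovery rate (FDR) was below 0.2 and the log2 fold change exceeded 0.5 in either direction. Both thresholds are those of the study's methods. The filter and the fit were chosen here, so the counts are not those of the study. Adjusted p-values come from limma with the set as a block. With 3 cultures in a group the precision is limited. In RNA from whole cultures, fewer cells of a type and less RNA per cell cannot be told apart.

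Marker genes of glial and other cells were looked at on the A172 arrays. Of 10 glial and glioma markers, 6 were well above background on all 6 arrays, among them the intermediate filament genes NES and VIM and the transcription factor genes SOX2, SOX9 and OLIG2. NES read 6.18, 7.32 and 6.48 on the control arrays, and VIM read 7.28, 7.05 and 7.07. The glial genes S100B and PTPRZ1 were well above background on no A172 array and GFAP on 1 control array, so these glial markers were dim. Of the 7 epithelial markers, KRT14 alone was well above background on all 6 arrays, and CDH1, the cadherin of epithelial junctions, was so on none. The probes of the immune markers PTPRC, CD14 and CD3E and of the endothelial markers PECAM1, CDH5 and VWF were well above background on all 6 arrays. None of these 6 probes was called, with log2 fold changes from -0.06 for PECAM1 to 0.12 for CD14. What these probes read was not tested. A signal well above background therefore does not by itself show a cell type, and these markers do not establish the identity of the line. The erythroid marker HBB was well above background on no array.

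The sequence of the siRNA is set beside that of the forward primer with which the study measured LINC00152. The same forward primer of 21 bases is given for LINC00152 and for MIR4435-1, and only the reverse primers differ. Of the 25 bases of the siRNA, the 19 in capitals are also part of this primer, and they are written in capitals there too. Whether the copy also holds the remaining bases of the siRNA was not tested.
siLINC00152 #1: TGCCTGTCTTCAGATCTTCacagca
forward primer of LINC00152 and MIR4435-1: cgTGCCTGTCTTCAGATCTTC

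The promoter windows of both genes are shown because probes listed for both fell together in A172. Each window runs from 250 bases before to 50 bases after the start of the gene and was taken from RefSeq for GRCh38.p14. The CYTOR window is chr2:87455177-87455476 on the + strand, and that of MIR4435-2HG is chr2:111495112-111495411 on the - strand. The capitals mark 241 bases that are identical in both windows in 1 unbroken run. In the CYTOR window 59 bases follow this run, and in the MIR4435-2HG window 59 bases precede it. The run thus reaches an edge of each window, and the sequences beyond the windows were not compared.
CYTOR: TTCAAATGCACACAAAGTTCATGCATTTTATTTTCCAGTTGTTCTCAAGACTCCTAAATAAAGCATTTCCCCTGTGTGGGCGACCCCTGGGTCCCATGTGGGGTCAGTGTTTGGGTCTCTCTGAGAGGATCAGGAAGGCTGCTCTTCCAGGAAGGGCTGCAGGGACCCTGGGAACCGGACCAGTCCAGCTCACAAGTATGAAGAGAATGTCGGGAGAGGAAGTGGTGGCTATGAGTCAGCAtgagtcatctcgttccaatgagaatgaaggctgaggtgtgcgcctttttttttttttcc
MIR4435-2HG: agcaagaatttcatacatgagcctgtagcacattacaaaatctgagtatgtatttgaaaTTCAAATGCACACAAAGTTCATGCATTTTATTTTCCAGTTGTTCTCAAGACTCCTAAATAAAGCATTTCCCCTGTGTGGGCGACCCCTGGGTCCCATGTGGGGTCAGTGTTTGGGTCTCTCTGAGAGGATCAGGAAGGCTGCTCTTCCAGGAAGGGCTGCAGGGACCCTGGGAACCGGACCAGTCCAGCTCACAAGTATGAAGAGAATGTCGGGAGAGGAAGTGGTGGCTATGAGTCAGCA
The pattern TGANTCA, known as a binding pattern of the AP-1 factors, reads the same on both strands. It occurs at 2 places in the CYTOR window and at 1 in the MIR4435-2HG window. Of the CYTOR places, 1 lies after the shared run, where the MIR4435-2HG window has ended. The counts thus depend on the window edges and do not set the promoters apart. Over all 35116 promoter windows of this length, 7.71% hold the pattern and 0.515% hold it at 2 or more places. These matches describe the letters of the windows and name no site.

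Knockdown of the target was measured with 5 probes of the 2 loci. Their gene names come from the listed accessions. Whether a probe listed for 1 copy also read RNA of the other was not tested. The CYTOR probe A_24_P273143 read 2.63, 2.44 and 2.48 on control arrays 1, 2 and 3 and 0.23, -0.42 and -0.10 on knockdown arrays 1, 2 and 3. All 3 knockdown arrays lay far below all 3 control arrays, so the values match the labels of the arrays. The group means were 2.52 ± 0.10 (SD, n = 3) and -0.10 ± 0.33 (SD, n = 3). The log2 fold change was -2.61 (standard error 0.16, adjusted p = 0.00163), and 16.3% of the signal remained. For MIR4435-2HG, the probe A_21_P0012079 read 3.14, 3.15 and 3.33 with the control and 0.77, 0.54 and 1.01 after the knockdown. These groups did not overlap either, and the log2 fold change was -2.44 (standard error 0.14, adjusted p = 0.00163), with 18.5% of the signal left. The probe A_21_P0012078 of the same gene fell from 2.23, 1.13 and 2.48 to 0.76, -0.58 and 1.07. Here set 2 was dimmer than the others in both groups, and the fall within the sets was 1.47, 1.70 and 1.42. Its log2 fold change of -1.53 (adjusted p = 0.0126) and that of -1.16 for the probe listed by the transcript ENST00000409139 (adjusted p = 0.00699) were smaller. A further MIR4435-2HG probe, A_33_P3269678, read 1.86, 2.30 and 2.27 with the control and 1.50, 2.17 and 1.84 after the knockdown. Its groups overlapped, and its log2 fold change of -0.31 was not called (adjusted p = 0.570).

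**Figure D1:**
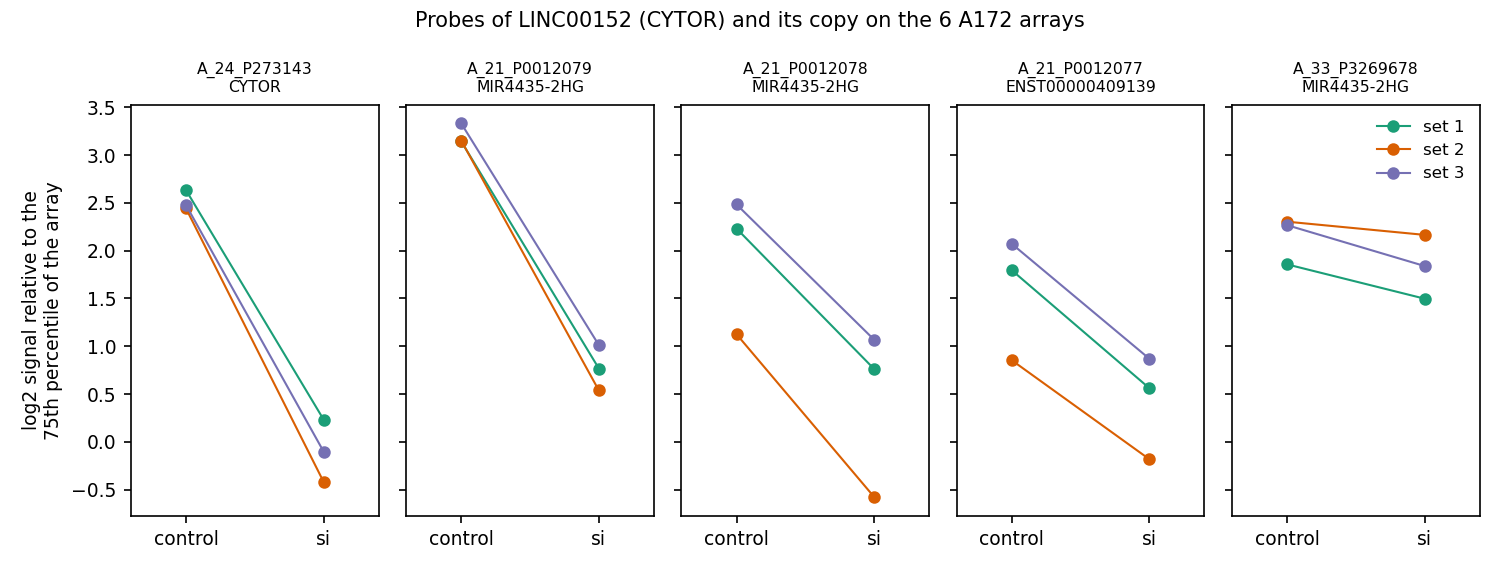
Signal on the log2 scale, with 0 at the array's 75th percentile (vertical axis), for 5 probes of CYTOR and its copy with the control siRNA and with siLINC00152 #1 (horizontal axis); each line joins the 2 arrays of a set. The lines of the first 4 probes fall steeply in all 3 sets, by log2 fold changes from -2.61 to -1.16, and those of A_33_P3269678 hardly slope (-0.31).

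Genes beside the 2 loci were looked at with 1 probe each. Over all genes tested in this way, 4.01% were called. Of the 10 nearest tested genes of CYTOR, 1 was called, KRCC1, with a log2 fold change of -0.98 (adjusted p = 0.0618), and the others lay up to 0.38. Among the 10 nearest of MIR4435-2HG, ANAPC1, a subunit of the anaphase-promoting complex, was called lower (-0.56, adjusted p = 0.139). A count of 1 in 10 is too small to set the neighbours apart from other genes. Both are named with their values known. BCL2L11 and BUB1, which also lie near MIR4435-2HG, had log2 fold changes of 0.32 and -0.31 and were not called with their brightest probes. A dim probe of BCL2L11, A_24_P122921, was called higher (0.88, adjusted p = 0.141).

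Beyond the target, falls outnumbered rises in A172. Of the 28338 tested probes, 924 were called (3.26%), 308 of them higher (1.09%) and 616 lower (2.17%) after the knockdown. These numbers depended on the pairing and on each set. Without the set as a block 52 probes were called, and with set 1, 2 or 3 left out the number was 339, 331 or 228. Of the 130 called probes that the naming rule chose, 72 lost their call with at least 1 set left out. Below, this loss is given for some genes only. The calls of BMP4, CXCL5, PDGFD, E2F1 and CDT1, for example, were also lost with any 1 set left out. The called probes belong to 252 genes that were higher and 482 that were lower, and 31 and 67 of the probes have no gene name. All 924 moved the same way in all 3 sets. The calls rest on these same differences, so this follows largely from the selection and is no separate check. Of all tested probes, 10300 (36.3%) moved the same way, 5504 of them higher and 4796 lower in every set. Rises of more than 2 on the log2 scale were seen for 13 probes, rises between 1 and 2 for 62 and smaller ones for 233. Among the falls, 17 exceeded 2, 217 lay between 1 and 2, and 382 were smaller. The median log2 fold change was 0.67 among the probes called higher and -0.88 among those called lower. Over all tested probes the median was 0.02, and the median absolute log2 fold change of 0.14 was below the median standard error of 0.18.

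The sets differed in how widely their probes spread. In set 1, 1074 probes differed by more than 1 on the log2 scale between knockdown and control, 532 upwards and 542 downwards. In set 2 there were 845 (279 up, 566 down) and in set 3 there were 578 (202 up, 376 down). Across 28321 probes, the differences of sets 1 and 2 correlated with r = 0.262, those of sets 1 and 3 with r = 0.355 and those of sets 2 and 3 with r = 0.450. These correlations describe probes, which are not independent, and the arrays compared share no RNA. FAM184A and VWA1 each had a probe with a fitted log2 fold change below -2 that was not called, and both are named because they stood out, after their values were seen. For VWA1 the differences of the 3 sets were -0.03, -10.27 and -0.08, and for FAM184A they were 0.85, -7.24 and 0.06, so that set 2 carried them.

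Calls were not confined to bright or dim probes. With the tested probes divided into 4 equal parts by their mean level, 3.46%, 3.60% and 3.64% were called in the lower 3 parts and 2.34% in the brightest. By kind of transcript, 264 of 17115 probes of protein-coding genes were called higher and 518 lower, 4.57% in all. Of 1263 probes of long noncoding RNA genes, 6 were higher and 23 lower (2.30%), and of 745 probes of pseudogenes and other RNA genes, 7 were higher and 8 lower. Among 2556 probes for TCONS transcripts, which are assembled RNAs without a gene symbol, 2 were higher and 15 lower. Of the 3425 genes with several tested probes, 282 had a called probe, and for 50 of these all probes were called the same way. No gene had called probes in both directions.

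**Figure D2:**
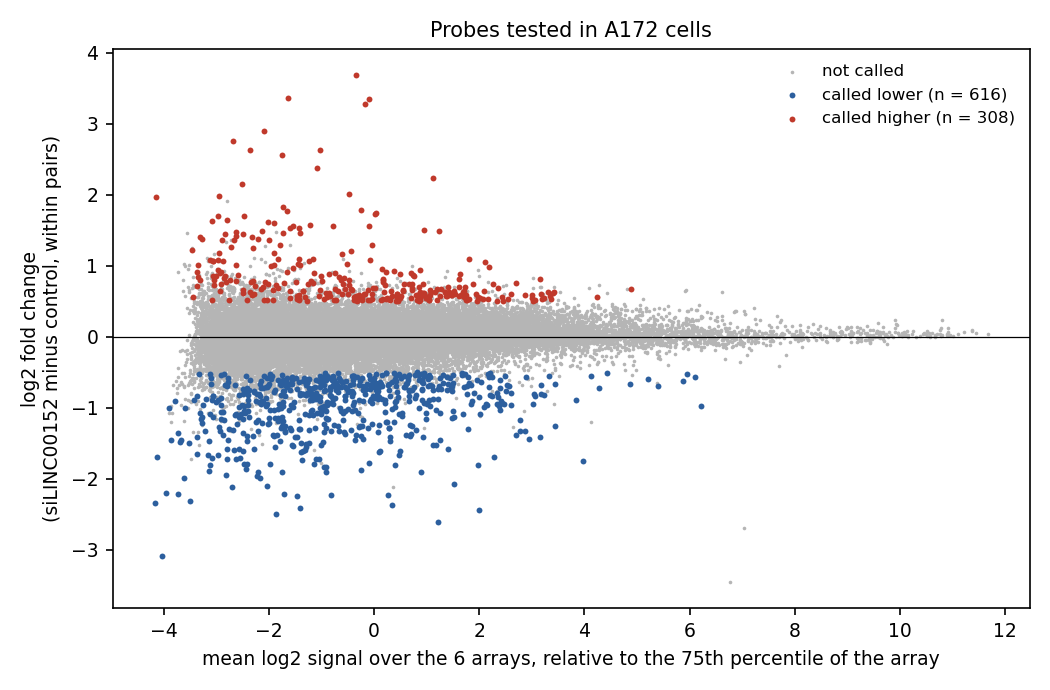
Log2 fold change within sets (vertical axis) against the mean log2 signal over the 6 A172 arrays relative to the 75th percentile of the array (horizontal axis); each point is a probe, blue called lower, red called higher and grey not called. The 616 blue points outnumber the 308 red ones, which reach up to 3.69, and most of both lie left of the brightest probes; the lowest grey point, at the lower right, is the VWA1 probe, which rests on set 2.

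The largest rises in A172 were those of keratins, the intermediate filament proteins of epithelial cells. KRT16P2, a pseudogene copy of KRT16, read -1.95, -2.39 and -2.23 on the control arrays and 0.87, 1.94 and 1.72 on the knockdown arrays. Every knockdown array stood far above every control array, and set 1 rose least. The log2 fold change was 3.69 (standard error 0.37, adjusted p = 0.00699). KRT16, a keratin of wounded and stressed skin, read -1.77, -2.04 and -1.67 with the control and 0.87, 1.73 and 1.78 after the knockdown. The groups did not overlap, and the log2 fold change was 3.29 (standard error 0.31, adjusted p = 0.00648). KRT14, a keratin of the basal layer of the epidermis, had control values of -1.74, -2.05 and -1.51 and knockdown values of 1.05, 1.98 and 1.72 for its brighter probe. Again no array of one group reached the other, and the log2 fold change was 3.35 (standard error 0.41, adjusted p = 0.0142). Another KRT14 probe gave 3.36, and the remaining one was not called (0.71).

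KRT17, which accompanies KRT16 in injured epidermis, read -2.49, -1.81 and -2.52 on the control arrays and -0.33, 0.77 and -0.15 on the knockdown arrays. All 3 sets rose, and the groups were separate (2.37, standard error 0.23, adjusted p = 0.00695). The 2 probes of the pseudogene KRT42P rose by 2.63 and 0.63. Keratin genes and their pseudogenes are alike in sequence, and whether a probe read more than 1 of them was not tested. Probes without a gene name also rose, A_24_P887857 by 2.90 and the one listed as ENST00000577449 by 2.63. The rise of the probe listed as ENST00000582047 (2.75) is set against control signals of which 1 of 3 was well above background. Of the 22 keratins and keratin pseudogenes tested with 1 probe each, 5 were called higher and 1 lower, against 1.41% and 2.6% of all 14664 genes tested in the same way (207 and 381 genes, 4.01% in either direction). The fall was that of KRT80, with a log2 fold change of -0.80 (adjusted p = 0.0242). The median of the 22 was 0.08, beside 0.03 over all genes. KRT8, KRT18 and KRT19, the keratins of simple epithelia, had log2 fold changes of -0.02, 0.64 and 0.10 and were not called. Among 31 other genes of epithelia and keratinocytes (median -0.02), 1 was called higher and 2 lower. SPINK6, an inhibitor of kallikrein proteases of the skin, rose by 1.82 (adjusted p = 0.0157), and LAMB3, a laminin chain, and the desmosomal cadherin gene DSG2 fell (-0.98 and -0.75). The LAMB3 call ended with normexp background correction (-0.27).

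Other large rises concerned secreted proteins, a channel subunit and an RNA-binding protein. SAA1, an acute phase protein that is a known target of STAT3 in the liver, read -1.19, 1.39 and -0.20 with the control and 1.87, 2.66 and 2.19 after the knockdown. The control arrays differed widely, control 2 being the highest, yet all 3 knockdown arrays lay above them. The log2 fold change was 2.24 (standard error 0.35, adjusted p = 0.0340), and the call was lost without set 3. IGFBP5, which binds insulin-like growth factors, read -3.10, -0.23 and -1.11 with the control and -1.00, 1.66 and 0.95 after the knockdown. Here the groups overlapped, because set 1 was dim in both, but the rise within the sets was even, at 2.10, 1.90 and 2.06 (log2 fold change 2.02, adjusted p = 0.00312). ELAVL2, a neuronal RNA-binding protein, rose by 1.98 (adjusted p = 0.0103), and KCNMB4, a subunit of calcium-activated potassium channels, rose by 1.78 (adjusted p = 0.0126). For the clathrin light chain CLTB, set 2 carried the change, since the differences were 0.98, 4.34 and 1.15 (log2 fold change 2.16, adjusted p = 0.177). Its call was lost without set 1, without set 3, with quantile normalization and with the A172 arrays alone.

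The largest falls outside the LINC00152 locus concerned actin-linked proteins, membrane proteins and an autophagy gene. ABLIM3, which binds actin filaments, read -0.62, -0.99 and -0.26 on the control arrays and -2.87, -3.36 and -3.12 on the knockdown arrays. The groups lay well apart (change of -2.50, standard error 0.15, adjusted p = 0.00163), although a brighter ABLIM3 probe changed by -0.37 and was not called. FILIP1L, a filamin-interacting protein, read 2.21, 1.39 and 0.95 with the control and -0.27, -1.39 and -0.88 after the knockdown. All knockdown arrays were below all control arrays, and the change was -2.36 (standard error 0.21, adjusted p = 0.00614). The ubiquitin ligase gene TRIM8, whose product acts on STAT3 signalling, read 2.58, 2.60 and 2.50 with the control and 0.44, 0.50 and 0.53 after the knockdown. Its 3 cultures were nearly alike within each group, and the log2 fold change was -2.07 (standard error 0.15, adjusted p = 0.00312). SUCNR1, the receptor for succinate, fell from 1.17, 0.96 and 1.99 to -1.03, -1.07 and -0.44, without overlap (-2.22, adjusted p = 0.00312). MAP1LC3C, a member of the LC3 family of autophagosome proteins, fell by 2.25 on the log2 scale and the efflux transporter ABCC3 by 2.22. Further falls in this range were those of TMEM158 (-2.41), OLFML2A (-2.22), SVIL2P (-2.11), TMEM154 (-2.11), LPCAT2 (-1.99), ITGA6 (-1.96) and EVC (-1.95), with adjusted p-values from 0.00977 for LPCAT2 to 0.0587 for OLFML2A. The OLFML2A value was -1.47 without set 1, and a brighter OLFML2A probe gave -0.18 and was not called. The TMEM158 call was lost without set 1 and without set 3, and its differences ranged from -3.64 to -1.39.

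**Figure D3:**
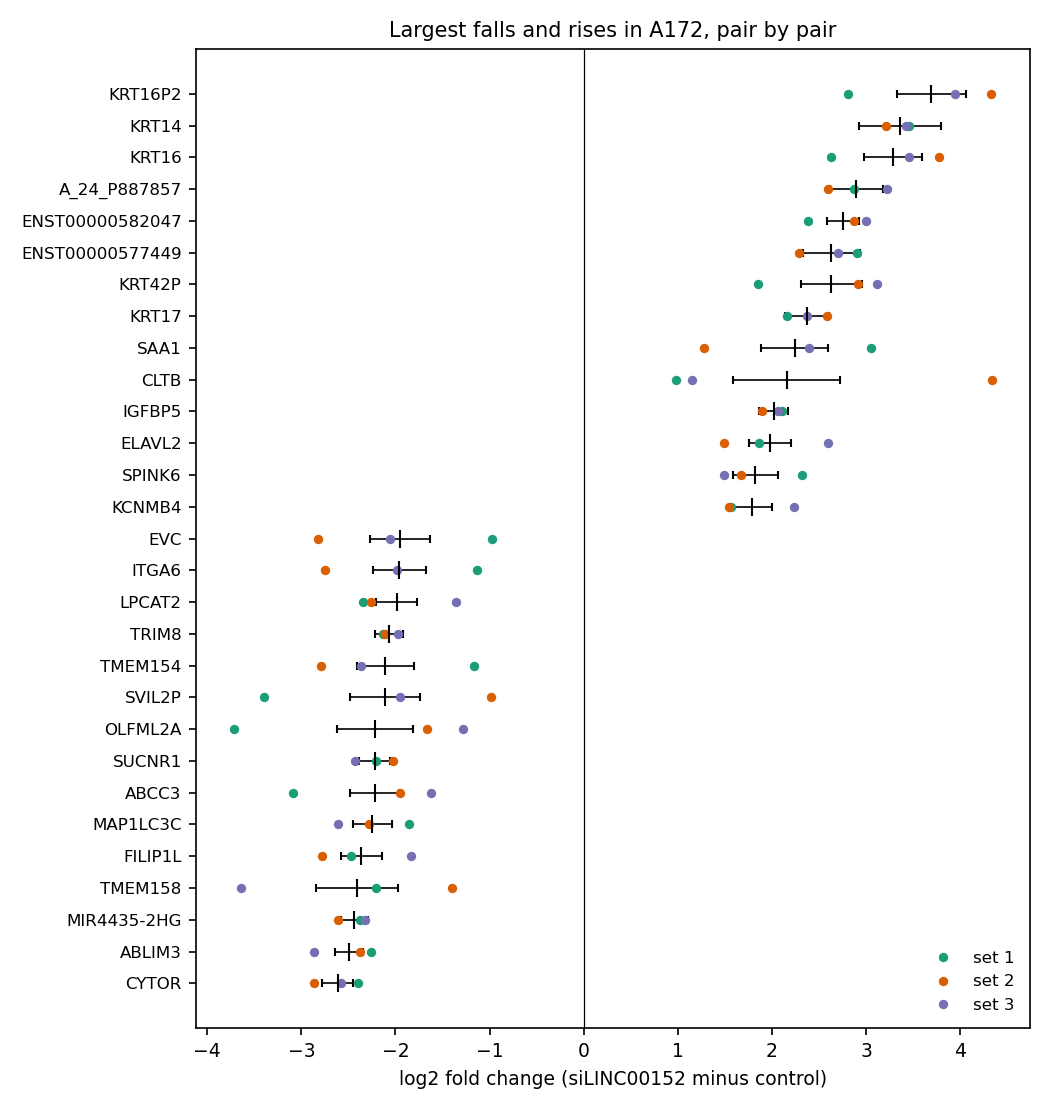
Log2 fold change (horizontal axis) of the largest rises and falls with 1 probe per gene (vertical axis); coloured points are the differences between knockdown and control in sets 1, 2 and 3, and the black mark with its bar is the fitted value with its standard error. All points of a probe lie on the same side of 0, which the choice of these probes required. The sets lie close together for CYTOR, TRIM8 and IGFBP5 and far apart for CLTB (0.98 to 4.34) and OLFML2A (-3.71 to -1.28).

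For 19 probes called lower, no knockdown array was well above background, and for 2 called higher no control array was. For such a probe a bound is given. It sets the mean of the brighter group against the mean, over the arrays of the dim group, of the lowest signal well above background on that array or the probe's own signal, whichever was higher. OASL, an interferon-induced protein of antiviral defence, read -2.70, -1.78 and -2.97 with the control and was well above background on no knockdown array. Its signal was at least 2.61-fold lower (adjusted p = 0.000901). RAB3D, a small GTPase of secretory vesicles, was at least 2.37-fold lower (adjusted p = 0.0152), CLN8, a membrane protein of the endoplasmic reticulum, at least 1.82-fold (adjusted p = 0.00312), TNFAIP6 at least 1.67-fold (adjusted p = 0.168) and the gelatinase gene MMP2 at least 1.49-fold (adjusted p = 0.0710). These adjusted p-values set control signals against signals that were not above background. With normexp background correction these 5 calls were lost. Some other called probes passed the filter through their brighter group and were well above background on 1 array of the other. Among the probes named here, these were probes of ELAVL2, CLTB, KRT42P, MIR17HG and ENST00000582047, each on 1 control array, and of LPCAT2, ITGA6, TMEM154, GBP1 and ZIC1, each on 1 knockdown array. The sizes of their changes rest partly on signals near background. This correction adds an offset of 50 to every signal, which makes differences between dim signals smaller by its construction.

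Lists of genes with related functions show how far the response reached beyond the strongest probes. In 38 lists, 1258 genes were tested with 1 probe each, the brightest, and 111 of them were called, 41 higher and 70 lower. A further 477 called genes were in none of the lists. Each list is described by its counts and its median log2 fold change beside the values for all genes tested, 1.41% called higher, 2.6% called lower and a median of 0.03. Of all 14664 genes, 3275 were higher and 2583 lower in all 3 sets, which stands beside the same counts for the lists. Nothing is said to be particular to a list from these numbers.

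Genes of the actin cytoskeleton and of adhesion fell where they were called. Of 57 genes of the actin cytoskeleton and cell motility, 7 were called lower and none higher, the median was -0.18, and 27 were lower in all 3 sets against 4 that were higher. Besides FILIP1L, the falls included MYH9, the heavy chain of non-muscle myosin, which read 3.92, 4.18 and 4.10 with the control and 2.78, 2.99 and 2.66 after the knockdown. Its groups were separate (log2 fold change -1.25, adjusted p = 0.0103). PHLDB2, which anchors microtubules at the cell cortex, fell by 1.19, and the myosin light chain kinase MYLK by 0.98, with all 3 MYLK probes called. CNN1, CTTN and ACTA2 fell too (-0.89, -0.67 and -0.58). The filamin FLNA (-0.54) and the paxillin gene PXN (-0.55) were not called. Of 30 integrins, syndecans and other adhesion genes, 6 were called lower and none higher (median -0.11). The proteoglycan SDC4 fell by 1.61 (by 0.99 without set 1, with the call lost without set 3), the adhesion receptor ADGRG1 by 1.58, the hyaluronan receptor CD44 by 1.13 and the laminin-binding integrin ITGA3 by 0.95. The CD44 probe stood at 3.00, 1.76 and 1.47 on the control arrays and at 1.72, 0.66 and 0.47 on the knockdown arrays. The groups overlapped because set 1 was bright in both, but each set fell by about 1 (adjusted p = 0.00807). Another CD44 probe gave -0.24 and was not called, and the brighter ITGA6 probe, at -1.12, was not called.

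Matrix genes moved in both directions. Of 41 collagens, laminins and matrix glycoproteins, 3 were called higher and 4 lower, with a median of 0.0004 that was below 0 with normexp (-0.0047), quantile normalization (-0.05) and the deposited values (-0.05). LOXL2 and LOXL1, enzymes that cross-link collagen, fell by 1.83 and 0.95, the laminin chain LAMA4 by 1.39 and SPARC by 0.61. MXRA5 rose by 1.75 (adjusted p = 0.00699), ANOS1 by 1.37 and thrombospondin THBS1 by 0.57. The 2 tested probes of ANOS1 and of THBS1 were called higher alike, while 1 of 3 LAMA4 probes was not called. Among 29 matrix proteases and their inhibitors (median -0.14), 4 were called lower and 1 higher. The sheddase ADAM17 fell by 1.25 (adjusted p = 0.0201), MMP24 by 1.16 and the plasminogen activator PLAU by 0.71, and ADAMTS1 rose by 0.79. ANOS1 and PLAU were no longer called with normexp or quantile normalization. Of 21 factors and markers of the epithelial-mesenchymal transition (median -0.09), TCF3, a helix-loop-helix factor that can repress CDH1, fell by 1.47 (adjusted p = 0.00579) and the secreted factor CCN2 rose by 0.82 (adjusted p = 0.139), a call that was lost with any 1 set left out (0.54 without set 1). SNAI2, ZEB1, TWIST1 and CDH2 were not called (0.31, 0.59, 0.06 and 0.00).

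Ligands and receptors of the signalling lists moved in both directions. Of 40 genes of the TGF-beta and BMP pathway (median -0.10), 2 were called higher and 2 lower. The ligand BMP4 read -2.88, -2.15 and -2.37 with the control and -1.49, -0.93 and -0.58 after the knockdown. All knockdown arrays were above all control arrays (log2 fold change 1.47, adjusted p = 0.0706). INHBA, the activin subunit, rose by 1.08, whereas the ligand TGFB1 fell by 0.76 and the receptor BMPR1A by 0.53, with 2 of its 4 probes called. Among 44 receptor tyrosine kinases and growth factors (median 0.05), PDGFD and FGFR1 rose (1.17 and 0.60, with 0.26 and no call for another FGFR1 probe), and VEGFC and PDGFRB fell (-1.08 and -0.77). EGFR, often amplified in glioblastoma, was not called (0.23). In the insulin-like growth factor axis, IGFBP5 and the glycoprotein STC1 (1.07) were called higher and the RNA-binding protein IGF2BP2 lower (-0.83) of 16 genes. Their median of -0.0045 was above 0 with each of the 3 other scalings (0.0005 to 0.0155). Of 39 Eph, ephrin, semaphorin and plexin genes (median 0.03), the semaphorin receptor PLXNA2 rose by 1.49 (adjusted p = 0.00699) and SEMA3B fell by 0.63. Of 33 genes of the Notch and Wnt pathways (median 0.15), 1 was called, AXIN2, a feedback inhibitor of Wnt signalling, which rose by 1.09 (adjusted p = 0.0357). Its other probe was not called (0.48), and the call was lost with any 1 set left out. With normexp the calls of INHBA, BMPR1A, PDGFRB and SEMA3B were lost.

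Among 25 G protein-coupled and peptide hormone receptors, 4 were called higher and 2 lower (median -0.05). SSTR5, a somatostatin receptor, read -3.75, -1.37 and -2.52 with the control and -1.24, -0.18 and -0.88 after the knockdown. Each set rose, by 2.51, 1.19 and 1.64, although control 2 and knockdown 1 lay close to each other. The log2 fold change was 1.78 (adjusted p = 0.0204), and SSTR2, another somatostatin receptor, rose by 1.73 (adjusted p = 0.159). The adenosine receptor ADORA1 rose by 1.51 (adjusted p = 0.00648) and ADORA2A by 0.51. SUCNR1 and the orphan receptor GPRC5A fell, the latter by 1.04 (adjusted p = 0.0656). The calls of SSTR2 and ADORA2A were lost with quantile normalization and with any 1 set left out, and that of ADORA2A also with normexp (0.24).

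Cell cycle genes were called in both directions. Of 49 genes of S phase and DNA replication, 2 were called higher and none lower, with a median of 0.18, and 27 were higher in all 3 sets against 3 that were lower. The called genes were E2F1, a transcription factor of the G1 to S transition (0.52, adjusted p = 0.161), and CDT1, which licenses replication origins (0.59, adjusted p = 0.0944). Both calls were lost with normexp. Members of the MCM helicase, MCM2 to MCM7, had log2 fold changes from 0.18 for MCM3 to 0.43 for MCM5, and none was called. Of 63 genes of G2/M and mitosis, 1 was called (median 0.01). This was FOXM1, a transcription factor of mitotic genes, which read 1.37, 1.27 and 1.26 with the control and 0.54, -0.50 and -0.30 after the knockdown. All knockdown arrays were below the control arrays, set 1 the least (log2 fold change -1.39, adjusted p = 0.0185). TPX2 and CCNB1, the brightest genes of this list, had log2 fold changes of 0.00 and 0.03, and MKI67 had -0.03. Among 19 G1 cyclins, kinases and inhibitors (median 0.01, and -0.01 with normexp), the inhibitor CDKN1A fell by 0.91 (adjusted p = 0.0731) and the cyclin CCNG1 rose by 0.54, a call that normexp ended.

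Targets of p53 moved both ways. Of 29 such genes (median -0.02), 2 were called higher and 3 lower. TNFRSF10B, a death receptor for TRAIL, read 2.94, 3.07 and 2.61 with the control and 1.36, 1.03 and 0.82 after the knockdown. The groups were clearly apart (log2 fold change -1.80, adjusted p = 0.00977). CDKN1A and EDA2R (-0.88) fell as well, while TP53INP1 rose by 1.30 (adjusted p = 0.0170) together with CCNG1. MDM2, GDF15 and BBC3 were not called (0.06, 0.11 and -0.02). Of 35 regulators of apoptosis (median -0.02, and 0.0026 with normexp), 5 were called lower and 1 higher. PPIF, the cyclophilin of mitochondria, read 0.30, 0.55 and 0.60 with the control and 1.60, 2.08 and 2.24 after the knockdown. Its rise was seen on every array (log2 fold change 1.49, adjusted p = 0.00833). HTATIP2 fell by 1.53, the BH3-only gene PMAIP1 by 1.15, the survival gene BCL2L1 by 0.56, FADD by 0.56 and CASP4 by 0.51. The EDA2R call was lost with normexp.

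Genes of interferon and cytokine responses were called in both directions, more of them lower, as over all genes (381 lower of 588 called). Of 50 interferon-stimulated genes (median -0.09), 5 were called lower and 1 higher, and 21 were lower in all 3 sets against 8 that were higher. Next to OASL, the guanylate-binding protein GBP1 fell by 0.89 (adjusted p = 0.0372), GBP3 by 0.67 and the PARP family members PARP12 and PARP14 by 0.77 and 0.70. USP18, which removes ISG15 from proteins, rose by 0.91 (adjusted p = 0.0558). The calls of GBP1, PARP12 and PARP14 were lost with normexp, and those of both PARP genes also with quantile normalization. The classical members IFIT1, ISG15 and OAS2 were not called (-0.03, 0.20 and 0.11). Of 23 genes of double-stranded RNA sensing and RNA interference (median -0.07), the kinase IKBKE fell by 1.56 (adjusted p = 0.0304) and AGO2, the slicer of RNA interference, rose by 0.58 (adjusted p = 0.170). Of 29 genes of the IL6, JAK and STAT pathway (median -0.09), 3 were called lower, TRIM8, SOCS2 (-0.94) and the cytokine CLCF1 (-0.66), and 2 higher, SAA1 and the receptor IL11RA (0.52). Of 20 genes of NF-kB, cytokines and chemokines (median -0.10), 3 were called lower. Besides TNFAIP6, these were the chemokine CXCL5, which fell by 1.33 (adjusted p = 0.0991), and TNFAIP2, which fell by 0.84. With normexp the calls of SOCS2, CLCF1 and IL11RA were lost as well.

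Metabolic and stress lists differed in their calls. Of 38 genes of hypoxia and glycolysis (median 0.03), 2 were called higher and 1 lower. PGK1, a glycolytic enzyme, read 5.01, 5.10 and 4.44 with the control and 3.34, 3.41 and 2.56 after the knockdown. It fell in every set without overlap of the groups (-1.75, standard error 0.14, adjusted p = 0.00312). The glucose transporter SLC2A3 rose by 1.47 (by 0.98 without set 2, which ended the call) and NDRG1 by 0.94, whereas GAPDH and LDHA were not called (0.09 and 0.31). Among 41 genes of cholesterol and fatty acid synthesis (median 0.07), 1 was called higher and 1 lower, and the lower one was ACSL3, which joins fatty acids to coenzyme A (-0.86). None of the 43 genes of the unfolded protein and amino acid response was called (median 0.05), with HSP90B1 at 0.01 and PDIA6 at 0.13. None of 27 heat shock and chaperone genes was called either (median 0.11), with HSPB1 at 0.45 and HSF1 at -0.06. The HSPB1 differences in sets 1, 2 and 3 were 1.00, 0.08 and 0.27. Of 49 genes of autophagy and lysosomes (median -0.05), 5 were called lower and none higher. Among them, with MAP1LC3C and CLN8, were EVA1A, a membrane protein of the autophagy pathway, and ATG5 (-0.66). EVA1A read -0.08, -0.07 and 0.14 with the control and -1.35, -2.19 and -1.99 after the knockdown. The groups did not overlap (log2 fold change -1.84, adjusted p = 0.00695).

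The respiratory chain and the ribosome held no called genes. None of 54 subunits of the mitochondrial respiratory chain was called. Their median was 0.20, and 31 were higher in all 3 sets against 1 that was lower, as in ATP5PF (0.30), while NDUFB7 had -0.05. None of 64 cytosolic ribosomal proteins was called (median 0.07), and 28 were higher in all 3 sets against 2 that were lower, with RPL38 at 0.06 and RPS27 at -0.09. Of 25 genes often used as a reference, 3 were called lower (median 0.20), namely PGK1, the purine salvage enzyme gene HPRT1 (-1.18, adjusted p = 0.0304) and REEP5 (-0.61). At the same time ACTB, GAPDH and TBP were not called (-0.26, 0.09 and -0.37). Of 25 ABC transporters (median 0.07), ABCC3 was the called one. Both of its probes fell, while ABCF1 and ABCA9 had log2 fold changes of 0.27 and -0.17.

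Genes of cell identity and of gene regulation gave scattered calls. Of 23 glial, stem cell and glioma genes (median -0.11), ZIC2 rose by 1.70 (adjusted p = 0.00695), and CD44 and ZIC1 fell, the latter by 1.12. ZIC1 and ZIC2 are related zinc finger factors, and the ZIC1 call was lost with normexp (-0.25). Of 29 neuronal genes (median -0.01), ELAVL2 was called higher and the long noncoding RNA MIAT lower (-0.59), with 5 of 12 MIAT probes called. Of 34 long noncoding RNAs studied in glioma (median -0.03), MIR17HG, the host of a microRNA cluster, and OIP5-AS1 rose (1.45 and 0.59), and LINC01116 (-1.07, with 3 of 4 probes called) and MIAT fell. Another OIP5-AS1 probe was not called (0.55). NEAT1, MALAT1 and HOTAIR were not called (-0.77, -0.23 and -0.12). Of 41 chromatin and DNA methylation regulators (median -0.01), GLYR1, a nucleosome-binding protein, fell by 1.60 and JADE2, a partner of a histone acetyltransferase, by 1.38, while PHF19, an accessory protein of Polycomb, rose by 0.67 with 1 probe and was not called with another (-0.17). Of 33 MAF, AP-1 and immediate early genes (median -0.01), 1 was called higher and 1 lower, and the lower one was KLF10 (-0.97). JUN, FOS and FOSL1 were not called (-0.15, 0.22 and 0.07). The calls of MIAT, MIR17HG and KLF10 were lost with normexp. None of 15 immune cell markers and none of 5 endothelial and blood markers was called. The medians of these 2 lists, 0.01 and -0.02, changed sign under other scalings, that of the immune list with quantile normalization and the deposited values and that of the endothelial list with normexp. CD79A and CD4, the brightest of the immune list, had log2 fold changes of 0.02 and 0.08.

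**Figure D4:**
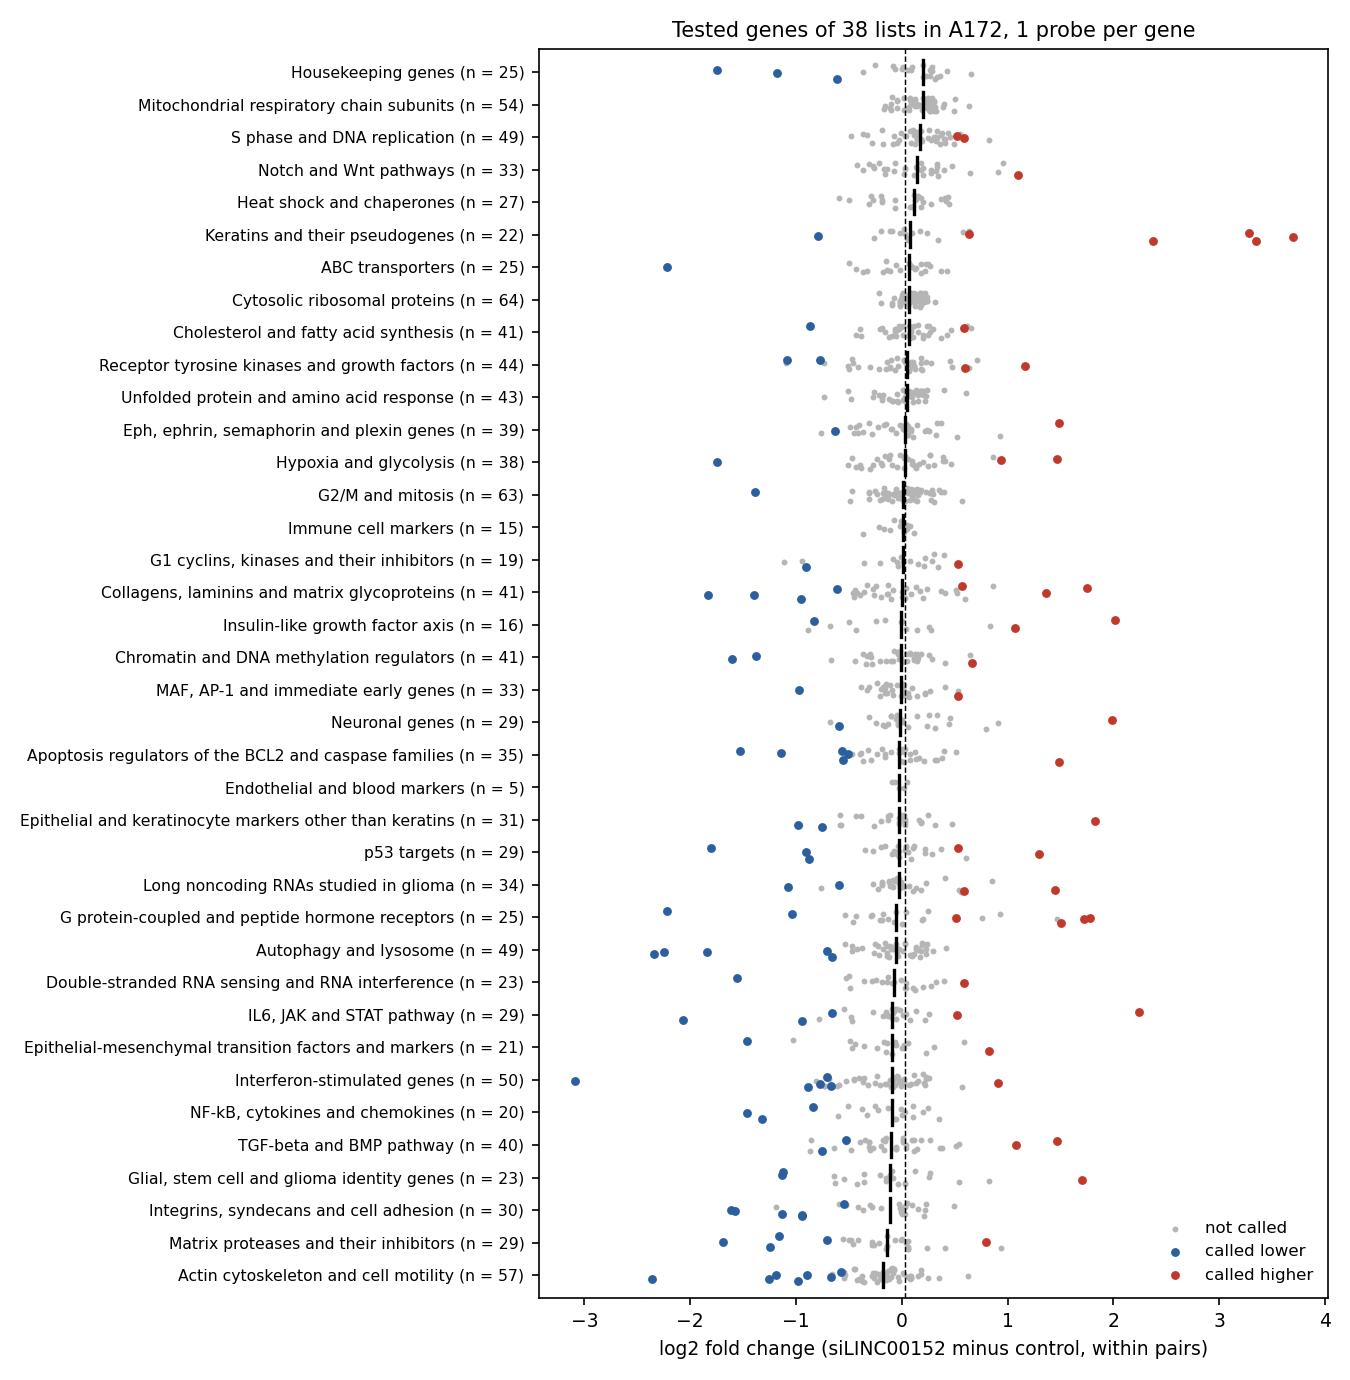
Log2 fold change within sets (horizontal axis) of the tested genes of 38 lists with 1 probe per gene (vertical axis, number of genes in brackets); points are genes, blue called lower, red called higher and grey not called, the thick line is the median of the list and the dashed line that of all genes (0.03). Actin cytoskeleton genes have the lowest median (-0.18), with blue but no red points beside the grey ones. Housekeeping and respiratory chain genes have the highest median (0.20), and the red points of the keratins stand farthest to the right (up to 3.69).

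The study also gives qPCR primers for several genes that were measured here. The 2 probes of STAT3, the transcription factor of IL6 signalling, had log2 fold changes of -0.78 and -0.44 and were not called (adjusted p = 0.247 and 0.268). The brighter one read 2.36, 2.41 and 2.19 with the control and 0.97, 1.93 and 1.71 after the knockdown, so set 1 differed most. AGTRAP, which binds the angiotensin receptor, fell from -0.82, -0.28 and -0.64 to -1.90, -1.84 and -1.92. The groups were separate (log2 fold change -1.31, adjusted p = 0.00699). Both probes of the lipid phosphatase gene SYNJ2 fell (-1.60 and -1.30), and so did both of EVA1A. For TRAF3IP2, an adaptor of interleukin-17 signalling, the tested probe was not called (-0.38). A dimmer TRAF3IP2 probe and that of TMEM163 were well above background on 2 control arrays and on no knockdown array, so they were not tested. For TRAF3IP2 the signal was at least 1.76-fold lower and for TMEM163 at least 1.57-fold. LINC00511 and FRAS1 were not called (-0.05 and 0.59).

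Where the A172 response differed from that of U87 was tested as the difference of the 2 knockdown effects. All U87 arrays lay on the same slide, which held no A172 array, and they were dimmer. Their 75th percentile was 33.0 to 69.0, and 35.7% to 48.3% of their spots were well above background. Line and slide thus coincide, and the part of slide and brightness in the differences was not tested. Of 21163 probes tested in both lines, 89 differed (0.421%), for 81 of which the A172 value was the lower one. The share depended on the settings. It was smaller with normexp (354 of 464), an intensity trend (279 of 349) and the set as a random effect (174 of 218). With quantile normalization (50 of 53) and the deposited values (48 of 51) it was not smaller. With the sets left out in turn the number of probes that differed was 2 to 4, and without the block it was 2. In A172, 70 of the 89 were called, and in U87 32 were, with 15 called in both. FILIP1L had a log2 fold change of -2.36 with A172 and of 0.64 with U87, a difference of -3.00 (standard error 0.28, adjusted p = 0.0412). For ABLIM3 the values were -2.50 and 0.24, a difference of -2.74 (standard error 0.20, adjusted p = 0.00866). PLAU fell in every A172 set and was higher in all 4 U87 sets (-0.71 and 1.47, adjusted p of the difference 0.0412). MYLK showed the same opposition, with -0.98 in A172 and 0.82 in U87 (adjusted p of the difference 0.0412), as did GBP1 and LAMB3. With normexp the A172 calls of PLAU, GBP1 and LAMB3 were lost, and so was the called difference of GBP1. ADORA1 rose in A172 (1.51), while its value in U87 was 0.01, a difference of 1.50 (adjusted p = 0.0861). The CYTOR probe fell alike, by 2.61 and 2.73, and the test found no difference (adjusted p = 0.887), which does not show that the effects were equal. The keratin probes KRT16P2, KRT14, KRT16 and KRT17 were not tested in U87, where none of them was well above background on 3 arrays of a group, so no difference was tested for them.

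**Figure D5:**
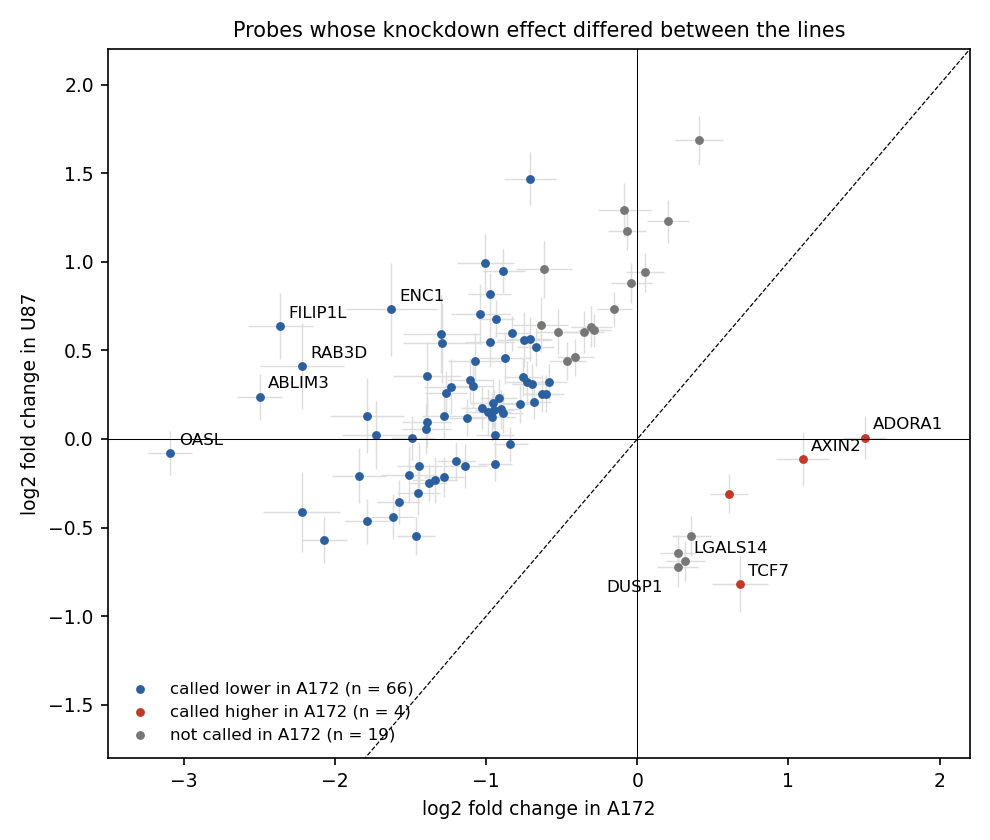
Log2 fold change in A172 (horizontal axis) and in U87 (vertical axis) of the 89 probes whose knockdown effect differed between the lines; points are probes, with bars of 1 standard error, coloured by their call in A172, and the dashed line marks equal effects. Most points lie above the line, to the left of 0, and 8 lie below it, among them ADORA1, AXIN2 and TCF7.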

How the data were processed

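RNA of 14 cultures had been measured by the authors on 1-colour Agilent arrays, read per the file headers with Feature Extraction 11.5.1.1 and annotated on hg19. The deposited intensity values are spot signals after background subtraction per the file headers, and the deposited log2 values had been made by the authors and rank as the processed signal does. Outlier spots were left out, log2 processed signals were set relative to the 75th percentile of each array, and spots were averaged per probe. A probe counted as well above background where at least 0.5 of its spots did, and was tested where this held on 3 arrays of a group. Of 50599 probes, 29033 were named by RefSeq accession (GRCh38.p14 table) and 29038 in all.

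The 14 arrays were fitted with limma 3.58.1 in R 4.3.3, with line and siRNA as groups and the set as a fixed block. Sets come from the labels, and the headers place both A172 arrays of a set on 1 slide. The deviations of the 2 arrays of a set from their group means correlated with r = 0.675 to 0.794, and those of different sets with r = -0.701 to -0.0436 (28321 probes). The spread was moderated over probes tested in either line, so U87 arrays enter the standard errors. P-values were adjusted by Benjamini and Hochberg within each comparison, with calls at FDR 0.2 and an absolute change of 0.5. Genes in lists were represented by the probe with the highest mean over the 6 A172 arrays. The code was tested on simulated data.

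Named were all probes of the target and its copy, genes with qPCR primers, the 15 largest rises and 15 largest falls, up to 4 called genes per list and direction (or the 2 brightest where fewer than 2 were called), and up to 5 differences from U87 per direction. Not all of these are printed. Further genes are named as well-known or called members of a list, with their values known. The members and lists were chosen with earlier results of these data known. Alternatives covered the block, arrays, background correction, scaling, filter, variance model, thresholds and left-out sets. The files hold no mean spot signal, so normexp (offset 50) used the median signal. KRT17P1, KRT17P2 and CCNA1 matched no probe name, nor did the list members LOR and NDUFA4. Probes of sex-linked genes that mark the donor's sex were tested and are not reported.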

Additional observations from a re-analysis of the deposited data

Results flagged for a closer look

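The knockdown effect differed between the lines by the interaction test for 28 named probes, given as A172 minus U87 on the log2 scale. Of these, 23 were called lower in A172 and 3 higher, and 17 were called in A172 and not in U87. Those lower in all A172 sets and higher in all U87 sets numbered 12. Over all 89 probes that differed, named or not, 70 were called in A172, 32 in U87 and 15 in both. Large differences were those of FILIP1L (-3.00), ABLIM3 (-2.74), ENC1 (-2.36) and PLAU (-2.18). The probes of OASL and RAB3D were well above background on no knockdown array of A172, so their fitted values of -3.01 and -2.63 rest on background signals and are neither ranked nor read as sizes. Matrix and adhesion genes were LAMA4 (-1.89 and -1.49 for 2 probes), LAMB3 (-1.53), CD44 (-1.25), ADGRG1 (-1.22), LOXL1 (-1.16) and ITGA3 (-1.11). For another LAMA4 probe, at -0.42, no difference was called. The kinase gene MYLK (-1.79), the interferon-induced gene GBP1 (-1.84), the transporter gene ABCC3 (-1.81) and the receptor gene GPRC5A (-1.74) also differed. For 2 probes of EVA1A the values were -1.63 and -1.07, and those of LINC01116, TRIM8, JADE2 and TCF3 were -1.51, -1.50, -1.13 and -0.92. Above 0 were DUSP1 (0.99), LGALS14 (1.01), AXIN2 (1.21), ADORA1 (1.50) and TCF7 (1.50), of which DUSP1 and LGALS14 were not called in A172. With normexp background correction the difference was no longer called for OASL, GBP1, JADE2, DUSP1, LGALS14 and the EVA1A probe with -1.07.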

How the results depend on the processing

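The counts depended on the pairing and on every set, while the target did not. The log2 fold change of the CYTOR probe ran from -2.73 to -2.23 over all alternatives. Without the set as a block, 52 probes were called in A172 in place of 924, 2 in place of 89 for the difference from U87, and 22 genes of the gene lists in place of 111. Leaving out 1 array of a pair equals leaving out the pair, which gave 228 to 339 probes, 2 to 4 differences and 44 to 63 list genes. With the 6 A172 arrays alone, 1612 probes and 167 list genes were called. Of the A172 probes, 636 were called with normexp, only 464 of them among the 924, 757 with quantile normalization and 679 with the deposited values. With no filter on dim probes there were 589 probes and 20 differences, with a test against a change of 0.5 (treat) 112, 3 and 34 list genes, and with an FDR below 0.05 there were 270, 8 and 54. The number of differences was 218 with the block as a random effect, 464 with normexp, 53 with quantile normalization, 51 with the deposited values, 349 with an intensity trend and 280 with the spread taken from the probes of the comparison only. This last alternative and most of those for the difference were added after the data were seen. Of 130 called named probes, 29 kept their call under every alternative that tested them and with each pair left out, and none turned its sign. Probes not above background on all 6 arrays were not tested by the alternative that asks for this. Why the alternatives differ was not tested.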
